A study of Mus musculus with 8 samples.

Results

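RNA sequencing of the tibialis anterior (TA) muscle, a fast-twitch muscle of the lower leg, was examined for 8 genes of Schwann cells and myelin: *Mbp*, *Pmp22*, *Prx*, *Sox10*, *S100b*, *Cnp*, *Mag* and *Ncmap*. They were chosen by symbol from the 16686 genes of the table, and all 8 were present. The libraries came from male FVBN mice labelled as 22 months old, 4 wild-type (WT) and 4 lacking *Mybpc2* (C2-/-), with 1 library per mouse. *Mybpc2* encodes fast skeletal myosin binding protein-C, and in the C2-/- line a series of its exons had been replaced by a Neo cassette flanked by LoxP sites, so the knockout was not restricted to muscle fibres or to nerve. No treatment is named in the labels. Whole muscle was homogenized, so each library holds RNA of fibres, vessels, connective tissue and the nerve branches within the muscle.

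Schwann cells are the glia of peripheral nerves. A myelinating Schwann cell wraps a stretch of 1 large axon in compacted membrane, whereas nonmyelinating Schwann cells ensheath small axons, and terminal Schwann cells cap the neuromuscular junction. The transcription factor SOX10 is needed at every stage of the lineage and switches on EGR2, and both factors together drive the genes of peripheral myelin. In muscle these cells are a small minority, so their transcripts are diluted by those of the fibres.

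The total count per library lay between 25425993 and 29747692. At these depths 3 counts, taken as the smallest level that can be shown, correspond to between 0.101 and 0.118 CPM, the count relative to the library total (all levels in CPM were also scaled by TMM factors), a limit that covers counting error only. The labels were checked by the targeted gene. *Mybpc2* was at 4964, 5450, 5101 and 7392 CPM in WT mice 1 to 4 and at 4.35, 4.02, 38.3 and 3.85 CPM in C2-/- mice 1 to 4, with a log2 fold change of −8.82 (adjusted p = 0.00750, edgeR's quasi-likelihood test). C2-/- mouse 3 was the highest of its group. The fast fibre genes *Acta1*, *Ckm*, *Myh4*, *Mylpf*, *Tnnt3*, *Pvalb* and *Actn3* summed to between 144398 and 197472 CPM over the 8 mice. Of 12542 genes tested, 4 passed an adjusted p under 0.05, and in bulk tissue fewer cells of a type and less RNA per cell cannot be told apart.

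Genes of oligodendrocytes, the myelinating cells of the brain and spinal cord, were read first. These cells also make 5 of the 8 proteins (MBP, SOX10, CNP, MAG and S100B). They were not expected in a leg muscle, so low values here do not tell Schwann cells from other cells of the muscle. Of 8 genes of oligodendrocytes, *Opalin* and *Klk6* were not among the genes of the table. *Mog*, a protein of the outer surface of central myelin, was at 0 in 7 mice and at 0.0362 CPM in WT mouse 4, and *Olig2*, the lineage factor, was likewise at 0 in 7 mice and at 0.0362 CPM in the same mouse. Both values are below 3 counts. *Mobp*, *Hapln2* and *Myrf* were too low to be tested, and only *Mal*, which Schwann cells also express, passed the filter. *Prx*, which peripheral but not central myelin uses, was at 2.63 CPM or more in every mouse. Most genes of motor axons were too low to be tested. *Nefl*, *Nefm* and *Nefh*, the neurofilament subunits, did not exceed 0.390 CPM in any mouse, and of 11 axon genes 2 were tested, *Prph*, with at most 0.893 CPM, and *Stmn2*, which lay between 2.50 and 4.89 CPM.

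Per transcript length, the 8 genes covered a wide range of levels. *Pmp22*, a tetraspan protein of compact myelin, was the most abundant at a mean of 22.0 TPM (the length-scaled unit deposited by the authors) over the 8 mice, with a range of 18.05 to 26.79. *Mbp*, the basic protein that holds the cytoplasmic faces of the membrane together, followed with 12.7 TPM (6.70 to 22.9) and stood below *Pmp22* in all 8 mice. *Cnp*, an enzyme and structural protein of the noncompact channels, had 6.78 TPM (3.49 to 8.06) and was below *Mbp* in 7 of the 8. *Prx*, which encodes periaxin of the Schwann cell cortex, had 1.80 TPM, and *Sox10* had 1.40 TPM. The order of these last genes was not fixed, since *Prx* was above *Sox10* in 5 of 8 mice. *S100b*, a calcium-binding protein, had 0.641 TPM, *Ncmap*, a protein of noncompact myelin, had 0.578 TPM, and *Mag*, the adhesion molecule facing the axon, had 0.300 TPM. *S100b* was above *Ncmap* in 5 of 8 mice and *Ncmap* above *Mag* in 5 of 8. Neither pair could be ranked beyond the spread between mice, and *S100b* was not compared with *Mag* mouse by mouse.

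SOX proteins bind a short core of letters, and the stretches upstream of the transcription start were read for it because *Sox10* is one of the 8 genes. RefSeq windows on GRCm38.p6, 250 bases before to 50 after a start, were at hand for 6 of the 8 genes (12 windows), and *Mbp* and *Sox10* had no entry. The letters searched were ACAAAG and ACAATG on both strands. They occurred in 3 of the 12 windows, namely in 2 overlapping windows of *Mag*, which share 1 match, and in that of *Cnp*, whereas 28.6% of 32851 windows of all genes held one. The EGR letters GCGTGGGCG and GCGGGGGCG were in 0 of the 12 windows and in 3.47% of all windows. Upstream stretches of 3 genes are shown, *Mag* and *Cnp* because they hold a match and *Prx* because its level and that of *Mbp* formed the closest pair, with the match in capitals and the gene's strand written 5′ to 3′.
Mag, minus strand, chr7:30914864-30915113: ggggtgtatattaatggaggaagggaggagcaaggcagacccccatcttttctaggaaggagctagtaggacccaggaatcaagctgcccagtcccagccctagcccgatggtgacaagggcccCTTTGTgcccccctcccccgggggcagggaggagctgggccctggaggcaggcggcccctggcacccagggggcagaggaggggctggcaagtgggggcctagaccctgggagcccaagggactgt
Cnp, plus strand, chr11:100574689-100574938: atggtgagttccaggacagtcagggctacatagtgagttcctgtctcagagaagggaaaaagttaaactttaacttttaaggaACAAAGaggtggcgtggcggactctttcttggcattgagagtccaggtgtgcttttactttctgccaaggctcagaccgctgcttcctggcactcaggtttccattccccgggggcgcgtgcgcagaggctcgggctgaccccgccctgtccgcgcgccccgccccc
Prx, plus strand, chr7:27499074-27499323: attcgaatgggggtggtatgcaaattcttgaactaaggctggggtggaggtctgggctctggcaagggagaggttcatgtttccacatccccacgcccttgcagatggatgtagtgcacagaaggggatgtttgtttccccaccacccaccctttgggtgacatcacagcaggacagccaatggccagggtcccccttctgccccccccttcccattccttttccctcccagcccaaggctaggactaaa
In the *Mag* stretch the match is the reverse complement and begins 126 bases before the start, and in the *Cnp* stretch it begins 167 bases before the start. The *Prx* stretch has none. These matches are a description of letters, and the share among the windows of these genes was not above that of all windows.

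The main question was whether loss of *Mybpc2* was accompanied by a different level of Schwann cell transcripts in the aged muscle. All 8 genes passed the filter on low counts, and 0 of 8 differed between the genotypes at an adjusted p under 0.05 in edgeR (0.0319% of all tested genes did). At an unadjusted p under 0.05 there were also 0 of 8, beside 5.29% of all genes (3.38% higher and 1.91% lower in C2-/-), and neither DESeq2 nor limma-voom called one at either threshold. No gene had values that were separated between the groups (3.38% of all genes had). The mean was lower in C2-/- for *Mbp*, *Pmp22*, *Prx*, *S100b* and *Ncmap* and higher for *Sox10*, *Cnp* and *Mag*, that is 5 of 8 below 0, where 54.2% of all tested genes were below 0. The median log2 fold change of the 8 was −0.23, beside −0.02 over all genes. It was −0.11 without WT mouse 1, −0.14 without C2-/- mouse 3 and −0.35 without WT mouse 2.

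**Figure D1:**
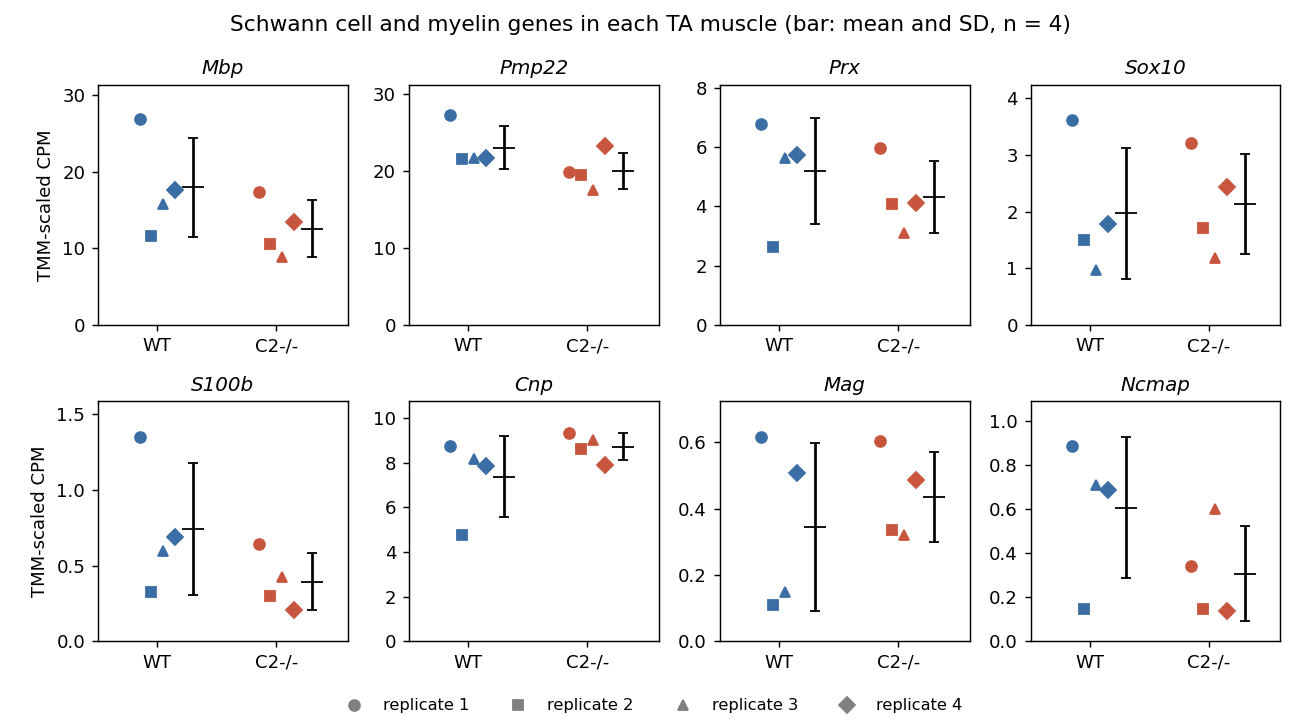
Level of each of the 8 genes in each mouse, in TMM-scaled CPM on an axis from 0 (each panel has its own scale); symbols mark replicates 1 to 4, blue WT and red C2-/-, and the black bar is the mean with its SD (n = 4). WT and C2-/- points overlap in every panel, and WT mouse 1 (blue circle) is the highest point in all but the *Cnp* panel.

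Among the proteins of compact myelin, *Mbp* (gene ID 17196, chr18:82475123-82585637 on GRCm38.p6, plus strand) was at 27.0, 11.6, 15.8 and 17.6 CPM in WT mice 1 to 4 and at 17.4, 10.5, 8.87 and 13.5 CPM in C2-/- mice 1 to 4. WT mouse 1 was well above the rest, and the groups overlapped, with WT mice 2 and 3 within the range of C2-/- and WT mouse 4 just above it. The means were 18.0 ± 6.50 CPM (SD, n = 4) in WT and 12.6 ± 3.74 CPM (SD, n = 4) in C2-/-. The log2 fold change was −0.52 ± 0.27 (SE, edgeR adjusted p = 0.968, unadjusted p = 0.0861), and its 95% confidence interval ran from a 0.460-fold to a 1.06-fold level. The value was −0.25 without WT mouse 1, but −0.71 without C2-/- mouse 1 and −0.67 without WT mouse 2. *Pmp22* (gene ID 18858, chr11:63128982-63159547, plus strand), whose dosage is known to matter for peripheral myelin and which fibroblasts also express, was the steadiest of the 8. It was at 27.2, 21.5, 21.7 and 21.7 CPM in WT and at 19.8, 19.5, 17.6 and 23.2 CPM in C2-/-. WT mice 2 to 4 were nearly equal, mouse 1 stood above them, and C2-/- mouse 4 was above those 3. The log2 fold change of −0.20 ± 0.13 (SE, edgeR adjusted p = 0.968) had an interval from 0.712-fold to 1.06-fold. The value was −0.11 without WT mouse 1 and −0.28 without C2-/- mouse 4. Fibroblast genes were higher in C2-/-, as described further on, and their part in the *Pmp22* level was not tested.

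Periaxin and the 2 genes of noncompact membrane gave similar pictures. *Prx* (gene ID 19153, chr7:27499305-27520041, plus strand) was at 6.79, 2.63, 5.64 and 5.72 CPM in WT and at 5.98, 4.09, 3.09 and 4.13 CPM in C2-/-. The lowest and the highest value both belonged to WT mice. Its log2 fold change was −0.27 ± 0.29 (SE, edgeR adjusted p = 0.972), with an interval from 0.530-fold to 1.31-fold. It was −0.11 without WT mouse 1 and −0.13 without C2-/- mouse 3, but −0.48 without WT mouse 2 and −0.46 without C2-/- mouse 1. *Ncmap* (gene ID 230822, chr4:135369576-135398253, minus strand) was at 0.887, 0.146, 0.710 and 0.688 CPM in WT and at 0.341, 0.149, 0.603 and 0.139 CPM in C2-/-. WT mice 1, 3 and 4 and C2-/- mouse 3 were high and the other mice low, on counts of 4 to 23 reads. The difference, −0.97 ± 0.61 on the log2 scale (SE, edgeR adjusted p = 0.968), was the furthest from 0 of the 8, and it was compatible with anything from a 0.201-fold to a 1.31-fold level. Without C2-/- mouse 3 it was −1.52, and without C2-/- mouse 4 it was −0.72. The *Ncmap* interval overlaps the annotated intervals of *Chchd2-ps*, *Gm13201*, *LOC102638183*, *Zfp534* and *Zfp979*, and its counts are uncertain to that extent. *Cnp* (gene ID 12799, chr11:100574909-100591418, plus strand), whose interval overlaps that of *Dnajc7*, was at 8.75, 4.74, 8.18 and 7.85 CPM in WT and at 9.31, 8.63, 9.01 and 7.90 CPM in C2-/-. All mice but WT mouse 2 lay close together. The log2 fold change was 0.24 ± 0.19 (SE, edgeR adjusted p = 0.968), with an interval from 0.884-fold to 1.58-fold. The value was 0.08 without WT mouse 2 and 0.33 without WT mouse 1.

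*Mag* (gene ID 17136, chr7:30899175-30914921, minus strand) had the fewest reads, between 3 and 16 per library. It was at 0.617, 0.109, 0.149 and 0.507 CPM in WT and at 0.606, 0.335, 0.319 and 0.485 CPM in C2-/-. WT mice 2 and 3 were the lowest of all, with WT mouse 2 at the limit of 3 counts. The log2 fold change of 0.33 ± 0.55 (SE, edgeR adjusted p = 0.983) left an interval from 0.539-fold to 2.95-fold. The value turned on single mice, being 0.04 without WT mouse 2, 0.09 without WT mouse 3 and 0.15 without C2-/- mouse 1, and 0.76 without WT mouse 1 and 0.59 without WT mouse 4.

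The lineage factor and the calcium-binding marker were likewise not separated. *Sox10* (gene ID 20665, chr15:79154913-79164490, minus strand) was at 3.62, 1.50, 0.971 and 1.77 CPM in WT and at 3.22, 1.71, 1.17 and 2.43 CPM in C2-/-. Replicate 1 was the highest and replicate 3 the lowest mouse in both genotypes, though the labels do not say whether equal numbers tie mice together. The log2 fold change was 0.12 ± 0.43 (SE, edgeR adjusted p = 0.994), with an interval from 0.563-fold to 2.09-fold, and its sign turned when WT mouse 3 (−0.10) or C2-/- mouse 1 (−0.14) was left out, while it was 0.59 without WT mouse 1. *S100b* (gene ID 20203, chr10:76249000-76261319, plus strand), which adipocytes also express, was at 1.35, 0.328, 0.597 and 0.688 CPM in WT and at 0.643, 0.298, 0.426 and 0.208 CPM in C2-/-. WT mouse 1 was far above the rest, and the others formed 1 range. The log2 fold change of −0.91 ± 0.50 (SE, edgeR adjusted p = 0.968) had an interval from 0.246-fold to 1.16-fold. The value was −0.45 without WT mouse 1, but −1.24 without C2-/- mouse 1 and −1.15 without WT mouse 2. Adipocyte genes summed to between 90.5 and 134 CPM in WT and between 97.2 and 151 CPM in C2-/-. Most of each sum was *Fabp4*, at 72.9 to 112 CPM over the 8 mice with a log2 fold change of 0.01. Of the 8 adipocyte genes 7 were higher in C2-/- (median 0.75), and their part in the *S100b* level was not tested.

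**Figure D2:**
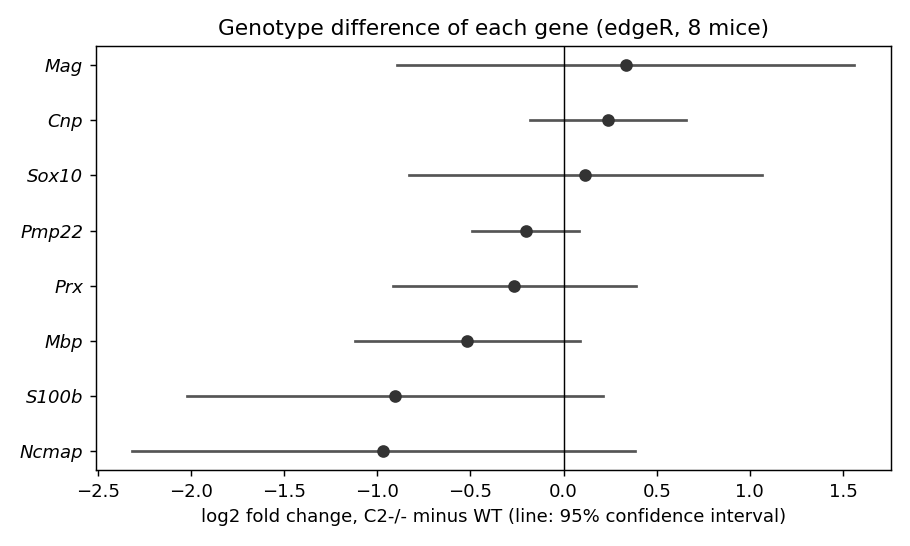
Log2 fold change of each gene between C2-/- and WT (horizontal axis, points) with its 95% confidence interval (lines) from the edgeR fit over 8 mice. All 8 intervals include 0, and the narrowest is that of *Pmp22*, the widest that of *Ncmap*.

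Mice of the same genotype differed widely in these genes. Over the 8 mice, the highest mouse exceeded the lowest 1.55-fold for *Pmp22*, 1.96-fold for *Cnp*, 2.58-fold for *Prx*, 3.04-fold for *Mbp*, 3.73-fold for *Sox10*, 5.64-fold for *Mag*, 6.40-fold for *Ncmap* and 6.49-fold for *S100b*. For *Mbp* the coefficient of variation among WT mice was 36.2%, where counting error alone would give 4.56%. For *Mag* it was 73.6% against a counting part of 32.9% among WT mice, but 31.1% against 28.9% among C2-/- mice. *Cnp* in C2-/- was also near counting error, with 6.97% against 6.45%, so that its 4 mice differed by little more than that. The biological coefficient of variation that edgeR estimated had a median of 35.5% over the 8 genes and of 19.6% over all tested genes. It was smaller than that of most genes only for *Pmp22* (15.4%, with 17.2% of genes below it), near the middle for *Cnp* (20.0%, with 52.1% below) and high for *Ncmap* (51.3%, with 97.0% below).

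WT mouse 1 was the highest of the 8 mice for every one of these genes but *Cnp*, for which C2-/- mouse 1 was the highest. The 8 genes summed to 76.2 CPM in WT mouse 1 and to 42.5, 53.7 and 56.5 CPM in WT mice 2 to 4. In C2-/- mice 1 to 4 they summed to 57.3, 45.2, 41.0 and 52.0 CPM. WT mouse 2 was the lowest for *Prx*, *Cnp* and *Mag*, C2-/- mouse 3 for *Mbp* and *Pmp22*, C2-/- mouse 4 for *S100b* and *Ncmap*, and WT mouse 3 for *Sox10*. WT mouse 2 also stood apart in other genes. Its genes of denervated muscle summed to 299.9 CPM, where the other WT mice had between 127.8 and 144.2 CPM and the C2-/- mice between 117.3 and 178.4 CPM. Its *Ncam1*, an adhesion molecule of denervated fibres and of nonmyelinating Schwann cells, was at 38.2 CPM, and the other 7 mice did not exceed 18.4 CPM. The part of this in its low *Prx*, *Cnp* and *Mag* was not tested. Without WT mouse 2, 0 of the 8 genes passed the adjusted threshold and 3 (*Mbp*, *Ncmap* and *S100b*) had an unadjusted p under 0.05, all lower in C2-/-. In that fit 7 of 12672 tested genes passed the adjusted threshold and 746 had an unadjusted p under 0.05.

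**Figure D3:**
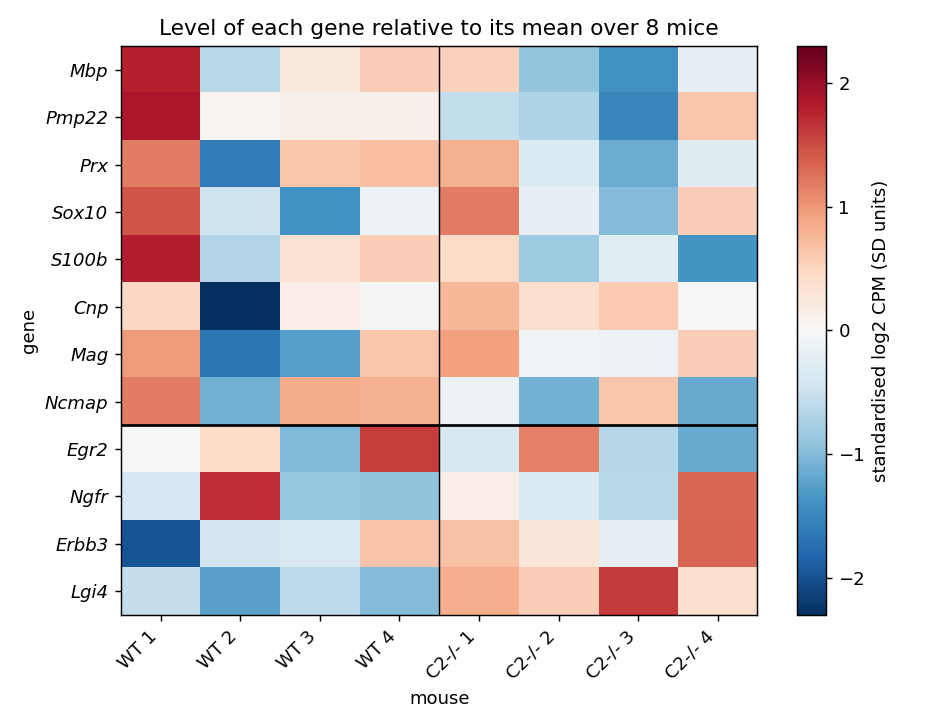
Standardised log2 CPM (SD units from each gene's mean over the 8 mice, colour) of the 8 genes above the line and of *Egr2*, *Ngfr*, *Erbb3* and *Lgi4* below it, by mouse. WT mouse 1 is red for each of the 8 genes, WT mouse 2 is blue for most of them but red for *Ngfr*, and *Lgi4* alone separates the genotypes.

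Whether the 8 genes moved together over the mice was tested for all 28 pairs with exact permutation tests on log2 CPM. The median Pearson r was 0.51 (0.31 without WT mouse 1), and 26 of 28 pairs had r above 0. With WT mouse 1 left out, some of these fell below 0, such as *Pmp22* with *Ncmap* (r = −0.25) and with *S100b* (−0.18). *Mbp* and *Prx* had a lowest r of 0.82 with any 1 mouse omitted. At an adjusted p under 0.05 there were 0 of 28 pairs, and 7 had an unadjusted p under 0.05. The matching shares over pairs of other genes were not taken, so these counts have no background beside them. The closest pair was *Mbp* and *Prx*, with r = 0.86 (exact permutation p = 0.00541, adjusted p = 0.106) and Spearman's rho = 0.90 (exact permutation p = 0.00456, adjusted p = 0.0639) over 8 mice. Without the 2 mice farthest from the median *Mbp* level r was 0.81, and after centring each gene within its genotype it was 0.89. *S100b* and *Ncmap* gave r = 0.85 (exact permutation p = 0.00754, adjusted p = 0.106) with rho = 0.86 (exact permutation p = 0.0107, adjusted p = 0.0750), and r = 0.79 without the 2 farthest mice. *Sox10* and *Mag* gave r = 0.79 (exact permutation p = 0.0218, adjusted p = 0.122) with rho = 0.90 (exact permutation p = 0.00456, adjusted p = 0.0639), and r = 0.65 without WT mouse 1 and C2-/- mouse 1. By contrast *Mbp* and *Pmp22*, both of compact myelin, had r = 0.81 (exact permutation p = 0.0157, adjusted p = 0.115) with rho = 0.71 (exact permutation p = 0.0576, adjusted p = 0.202). This relation rested on WT mouse 1 and C2-/- mouse 3, without which r was 0.17. *Pmp22* and *Cnp* had the lowest r, −0.12 (exact permutation p = 0.703, adjusted p = 0.730), with rho = −0.33 (exact permutation p = 0.428, adjusted p = 0.561) and r = −0.32 without the 2 farthest mice.

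**Figure D4:**
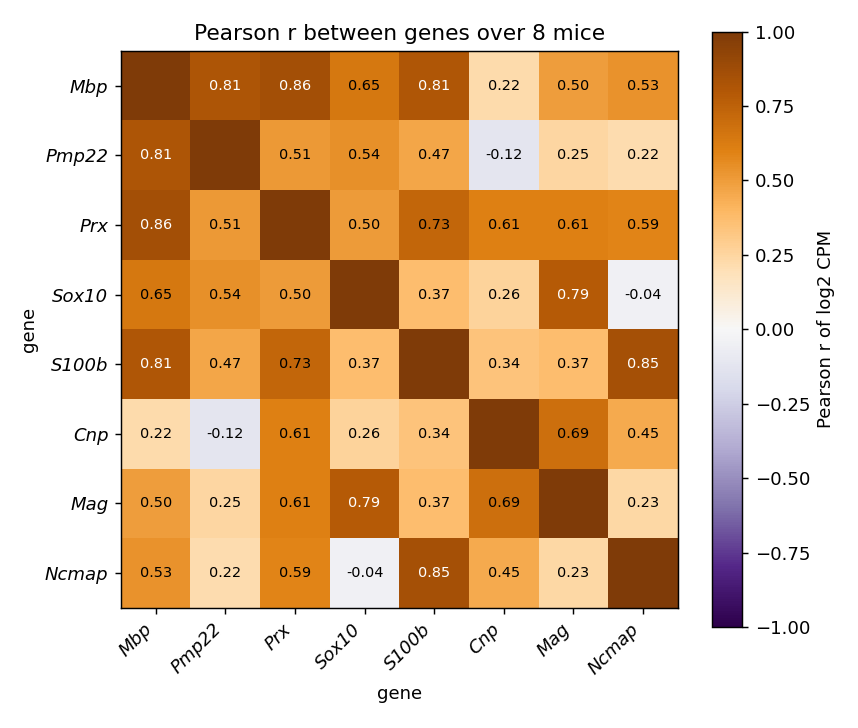
Pearson r of log2 CPM over the 8 mice for each pair of the 8 genes (colour and printed value, from −1 to 1). The strongest cells join *Mbp* with *Prx* (0.86) and *S100b* with *Ncmap* (0.85), and the lowest value joins *Pmp22* with *Cnp* (−0.12).

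The genes outside the 8 whose pattern was most like that of *Mbp*, *Prx*, *Mag* and *Ncmap* were sought among 11392 genes with a mean of at least 1 CPM, by Pearson r with the mean standardised log2 CPM of those 4 over the 8 mice. *Tcea3* came first (r = 0.98). It was followed by *Nim1k* (0.97), *Cmss1* (0.97), *Dhrs13* (0.97), *Aurka* (0.96), *Egfl8* (0.96), *Tmem135* (0.95), *Txnrd2* (0.95), *Gm42627* (0.94) and *Tmem18* (0.93). With 8 mice such values are common, as 452 of the candidates were at or above 0.72 and 31 lay below −0.9. The value of 0.72 was the lowest r of the 4 genes themselves (*Mag*). Each of the 4 is part of the mean it was compared with, which raises its r, whereas the candidates are not. *Egr2* was not among the close ones (r = 0.02).

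Of 12 other proteins of compact and noncompact myelin, 9 were tested, 2 higher and 7 lower in C2-/- on average, with a median log2 fold change of −0.29 and 0 at an unadjusted p under 0.05. Without WT mouse 1 the split was 4 higher and 5 lower, with a median of −0.01. *Cldn19*, the claudin of Schwann cell tight junctions, was at 2.74, 0.584, 1.61 and 1.74 CPM in WT and at 2.65, 1.12, 0.532 and 0.936 CPM in C2-/-, with mouse 1 the highest in both genotypes. Of 10 proteins of the node of Ranvier and the paranode, the axon contacts at the edge of each myelin segment, 6 were tested, 2 higher and 4 lower, with a median of −0.15. Without C2-/- mouse 4 they were 4 higher and 2 lower, with a median of 0.06. *Epb41l3*, which encodes a scaffold of the paranode, had an unadjusted p of 0.0446 in edgeR (adjusted p = 0.922), with means of 0.854 ± 0.247 CPM (SD, n = 4) in WT and 1.56 ± 0.787 CPM (SD, n = 4) in C2-/-. C2-/- mouse 1 was the highest at 2.73 CPM, and without it the log2 fold change went from 0.86 to 0.46.

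Of 14 transcription factors of the lineage 10 were tested, 3 higher and 7 lower, with a median of −0.11 and 0 at an unadjusted p under 0.05. Without WT mouse 4 they were 6 higher and 4 lower, with a median of 0.05. *Egr2*, the factor of myelination, was at 1.35, 2.12, 0.485 and 6.44 CPM in WT and at 0.946, 4.24, 0.709 and 0.416 CPM in C2-/- (log2 fold change −0.73 ± 0.82, SE, edgeR adjusted p = 0.972). The 3 highest mice, WT mice 2 and 4 and C2-/- mouse 2, were the 3 mice with *Fos*, an immediate early gene, at 70.9, 245 and 123 CPM, while *Fos* did not exceed 7.80 CPM in the other mice. *Egr2* belongs to the immediate early genes as well, and the part of that response in its level was not tested. *Mbp* showed no such pattern, being at 11.6, 17.6 and 10.5 CPM in those 3 mice.

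Signals that Schwann cells receive or send were also listed. Of 13 genes of neuregulin and adhesion signalling, 12 were tested, 11 higher and 1 lower in C2-/-, with a median log2 fold change of 0.27, beside −0.02 over all genes, of which 54.2% were lower. At an unadjusted p under 0.05 there were 2 of the 12, both higher (3.38% of all genes were higher at this threshold). Many of these genes, such as *Lama2*, *Lamc1*, *Itgb1* and *Dag1*, are expressed by fibres and connective tissue as well. Fibroblast genes were higher in C2-/- for 7 of 7 (median 0.67), and their part in this list was not tested. *Nrg1*, the axonal growth signal itself, was too low to be tested. *Lgi4*, a protein secreted by Schwann cells that is needed for myelination, was at 1.85, 1.57, 1.83 and 1.67 CPM in WT and at 2.57, 2.42, 3.09 and 2.32 CPM in C2-/-. The groups did not overlap (3.38% of all genes did not). Its log2 fold change of 0.59 ± 0.20 (SE, edgeR adjusted p = 0.766, unadjusted p = 0.0133) stayed between 0.49 and 0.64 with any 1 mouse omitted, and it did not pass the adjustment. *Itga6*, a laminin receptor of Schwann cells, endothelium and other cells, was at 10.9 ± 2.68 CPM (SD, n = 4) in WT and 17.3 ± 4.73 CPM (SD, n = 4) in C2-/-, with a log2 fold change of 0.66 ± 0.24 (SE, edgeR adjusted p = 0.849). C2-/- mouse 3, at 10.4 CPM, lay among the WT mice. *Erbb3*, the receptor for neuregulin, was at 0.656, 1.20, 1.23 and 1.81 CPM in WT and at 1.82, 1.56, 1.31 and 2.32 CPM in C2-/- (log2 fold change 0.51 ± 0.33, SE, edgeR adjusted p = 0.968, and 0.31 without WT mouse 1 or 0.78 without WT mouse 4), and here WT mouse 1, the highest for 7 of the 8 genes, was the lowest.

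Of 16 genes of nonmyelinating Schwann cells or of the state after nerve injury, 10 were tested, 5 higher and 5 lower, with a median of −0.06. *Cdh2*, or N-cadherin, was at 0.694, 0.474, 0.448 and 0.253 CPM in WT and at 2.65, 0.818, 0.958 and 0.901 CPM in C2-/-, without overlap (3.38% of all genes did not overlap). Its log2 fold change was 1.50 ± 0.48 (SE, edgeR adjusted p = 0.755, unadjusted p = 0.0101), and it was 0.94 without C2-/- mouse 1. *Cdh2* is expressed by muscle and mesenchymal cells too. *Dhh* of the same list did not overlap either but was lower, with 0.964 to 1.23 CPM in WT and 0.681 to 0.901 CPM in C2-/-. Its log2 fold change was −0.43 ± 0.25 (SE, edgeR adjusted p = 0.968). *Ngfr*, the low-affinity neurotrophin receptor of nonmyelinating and injured Schwann cells, was at 3.20, 6.20, 2.76 and 2.71 CPM in WT and at 3.82, 3.27, 2.98 and 5.51 CPM in C2-/-, with WT mouse 2 and C2-/- mouse 4 high (log2 fold change 0.07 ± 0.31, SE, edgeR adjusted p = 0.996). *Gfap* and *Shh* did not exceed 1 count in any mouse. *Cdh19*, a marker of Schwann cell precursors, lay between 0.145 and 0.530 CPM and was not tested. Of 20 genes of cholesterol and myelin lipid synthesis 18 were tested, 9 higher and 9 lower, with a median of 0.01 and 0 at an unadjusted p under 0.05 (13 higher and 5 lower with no scaling factors). *Ugt8a* and *Gal3st1*, the enzymes of galactocerebroside and sulfatide, were too low to be tested.

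**Figure D5:**
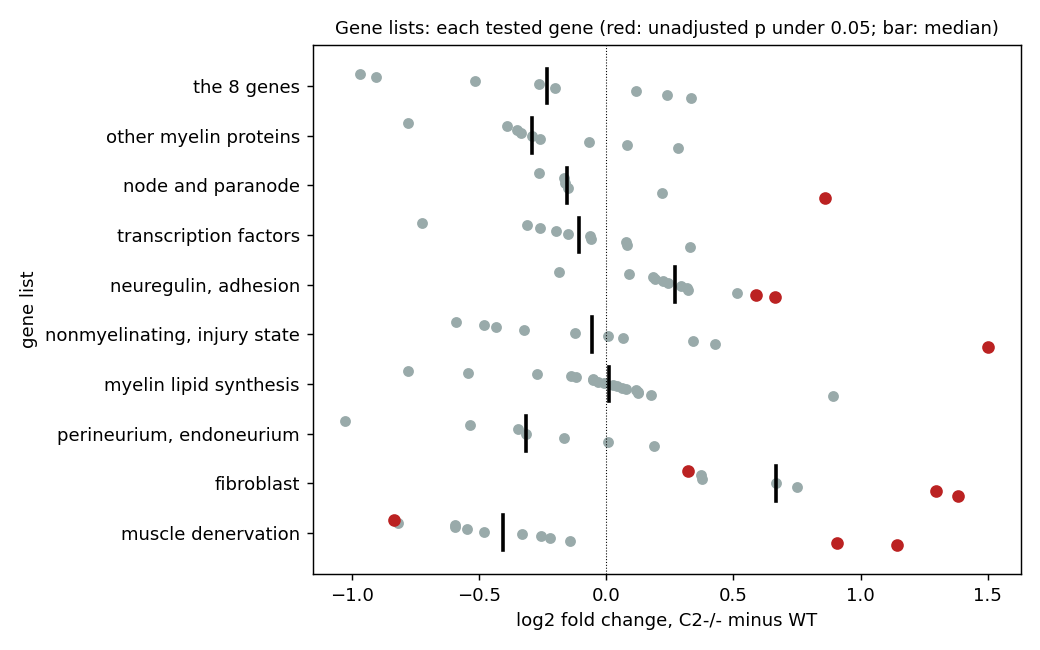
Log2 fold change between C2-/- and WT (horizontal axis) of each tested gene of 10 gene lists (rows); red points have an unadjusted p under 0.05 in edgeR, grey points do not, and the vertical bar is the list's median. The 8 genes hold no red point, and the neuregulin and adhesion list lies mostly to the right of 0 with 2 red points.

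Other cell types of the muscle were measured beside these genes. Perineurial and endoneurial genes, which mark the sheath of the nerve, were 2 higher and 5 lower of 7 tested (median −0.32, or −0.09 without WT mouse 1), and their sum was highest in WT mouse 2 (64.6 CPM, other mice between 29.6 and 45.6 CPM). Of this list only *Slc2a1* (27.9 CPM) and *Sox9* (20.4 CPM) were highest in that mouse, while *Cldn1*, *Itgb4* and *Lypd2* were highest in WT mouse 1. Fibroblast genes were higher for 7 of 7, with a median of 0.67. *Dcn*, *Col1a1* and *Col3a1* had an unadjusted p under 0.05 (5.29% of all genes did), and the summed levels did not overlap (3.38% of single genes did not), with 314.6 to 455.6 CPM in WT and 502.3 to 683.5 CPM in C2-/-. Tenocyte genes were higher for 6 of 7 (median 1.11, with *Tnmd* at an unadjusted p under 0.05), adipocyte genes for 7 of 8 (median 0.75, all 8 with no scaling factors) and macrophage genes for 5 of 6 (median 0.32). Single mice moved these medians. For tenocyte genes it was 0.65 without C2-/- mouse 4 and 1.87 without WT mouse 3, for adipocyte genes 0.46 without C2-/- mouse 3, and for macrophage genes it ranged from 0.13 without WT mouse 1 to 0.50 without WT mouse 2. Of 6 endothelial genes 2 were higher, with a median of −0.04 (3 of 6 with no scaling factors, and 0 to 4 with any 1 mouse omitted). Of the 12 tested genes of denervated muscle, 2 were higher and 10 lower, with a median of −0.41. *Myh3* and *Myh8* were higher and *Chrnd* lower at an unadjusted p under 0.05, where 3.38% of all genes were higher and 1.91% lower. Without WT mouse 2 the split of this list became 8 higher and 4 lower, with a median of 0.40. Muscle fibre genes were 2 higher and 5 lower of 7, or 4 higher and 3 lower with no scaling factors. In none of these lists did a gene pass the adjusted threshold in edgeR, and the part of these cell types in the levels of the 8 genes was not tested.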

How the data were processed

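Poly(A) RNA of 8 TA muscles was sequenced (DNA nanoballs), with 1 library per mouse. Per the labels, HISAT, Bowtie2 and DESeq2 were used with GRCm38.p6, and the study's methods name featureCounts and limma-voom. The authors deposited expected counts per gene (5.50% to 6.53% of values per mouse not whole, rounded here) and TPM, used here only to order genes. Strand use in counting is not stated. The 8 columns of FPKM and the authors' fold changes, p-values and q-values were not used. A growth note in the labels gives another age than the age entry of 22 months. Of 16687 rows, 16686 had a gene, and 24 symbols were restored from gene IDs. 

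Main test: edgeR 4.0.16 quasi-likelihood (R 4.3.3), TMM factors (0.929 to 1.03), edgeR's filter (12542 genes), Benjamini-Hochberg adjustment over all of them. CPM are TMM-scaled, and log2 CPM used a prior count of 2. Correlations were tested by exact permutation of pairings, two-sided. Alternatives were RLE or no factors, DESeq2 1.42.0, limma-voom (limma 3.58.1), no filter, at least 10 counts in every mouse, a block for the replicate number, and fits without each mouse in turn. The 8 genes and the lists were chosen with earlier results of these data known. Named were the 8 genes, list genes with an unadjusted p under 0.05, *Egr2*, *Ngfr*, *Erbb3*, *Cdh19*, *Mog*, the 10 most alike genes and *Mybpc2*; some items are not reported here, and other names were chosen after their values were seen. On simulated counts (12433 genes), edgeR called 73.0% of genes changed 2-fold and 98.0% of those changed 4-fold. The simulation gave each gene the spread typical of its level, not its own. The median biological coefficient of variation was 35.5% for the 8 genes and 19.6% over all tested genes, so these shares do not hold for the 8.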

Additional observations from a re-analysis of the deposited data

Results flagged for a closer look

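For 3 values a mouse stood far from the other 3 of its genotype, by Dixon's criterion for n = 4. These were *Pmp22* in WT mouse 1 (27.2 CPM), *Egr2* in C2-/- mouse 2 (4.24 CPM) and *Ngfr* in WT mouse 2 (6.20 CPM). They came from 22 groups of 4 mice, and chance alone marks about 1 in 20 such groups.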

How the results depend on the processing

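Of 117 alternative log2 fold changes of the 8 genes, 115 kept their direction and 2 turned, both of *Sox10* (−0.10 without WT mouse 3, −0.14 without C2-/- mouse 1, within a range of −0.14 to 0.59). The number of the 8 genes past the adjusted threshold was 0 under every alternative run. With an unadjusted p under 0.05 it was 0, became 1 with the replicate number as a block (*Mbp*, log2 fold change −0.50, unadjusted p = 0.0116, adjusted p = 0.723 in edgeR), and ranged from 0 to 3 when each mouse was left out. At that unadjusted threshold there were 660 of 12542 tested genes with the block, and 506 to 983 genes when each mouse was left out. Among all tested genes 4 were called by edgeR and 39 by DESeq2, and 4 to 7 without 1 mouse (7 without WT mouse 2). Of the 28 pairs 0 passed the adjusted threshold, 5 did after centring within genotype, and 0 to 2 without 1 mouse (2 without WT mouse 2, 1 without WT mouse 3). The permutation over all 8 mice is not exact for centred values, so the count of 5 is not comparable with the others. With at least 10 counts in every mouse, *Mag*, *S100b* and *Ncmap* were not tested. The replicate numbers were taken from the labels, which do not say whether they pair the mice. Same-numbered mice deviated with correlations of 0.27, 0.04, −0.05 and 0.02, and weak correlations cannot decide whether such mice were handled together. *Mag*, *Ncmap* and *S100b* rested on the fewest reads, and their spread between WT mice was also larger than counting error alone would give. The edgeR p-values weigh a genotype difference against the spread between these mice, and those of the pairs come from permuting the pairings of mice.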
